A study of Homo sapiens with 2 samples.

Results

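The promoter contacts of 9 RAS-ERK feedback and target genes, DUSP4, DUSP5, DUSP6, SPRY2, SPRY4, ETV4, ETV5, PHLDA1 and EGR1, were examined in HCT116 cells. For each gene, the anchors overlapping 2.5 kb on either side of the start site were taken as its promoter anchors, and a loop was any pair of one of these anchors with another anchor up to 1 Mb away between midpoints. All 9 genes had a promoter anchor, among 16465 protein-coding genes that had one, and together they had 328 loops of the 1765994 loops within 1 Mb. The rule itself uses no measured value, although the genes were proposed with earlier results of these data known.

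HCT116 is a human colorectal cancer cell line. HiChIP with an antibody against H3K27ac, a histone mark of active enhancers and promoters, was performed in 2 replicates under 1 culture condition, with no treatment, no normal colon cells and no library without the antibody, so no conditions were compared. Each loop carries a raw count of paired-end tags, which are read pairs joining the 2 anchors. The library totals on chromosomes 1 to 22 and X were 1885466 and 2131457 counts, and the libraries held 920077 and 1045416 loops within 1 Mb. Whether the replicates came from separate cultures is not given in the sources used here, so the spread between them may be technical. H3K27ac enrichment selects the contacts, so more of the mark on an anchor and more contact with it cannot be told apart in these counts.

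Growth factor receptors activate RAS, which acts through RAF, MEK and ERK, and active ERK induces genes that restrain the same pathway. The dual-specificity phosphatases DUSP4, DUSP5 and DUSP6 remove phosphate from MAP kinases, and the Sprouty proteins SPRY2 and SPRY4 dampen signalling between receptor and ERK. ETV4 and ETV5 are ETS transcription factors of the PEA3 group, EGR1 is an immediate early zinc finger transcription factor, and PHLDA1 is a pleckstrin homology-like domain protein induced by the pathway.

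The promoters were first read for the short motifs through which serum and ERK signals are known to act, in the 250 bases before the annotated start site of GENCODE 44 on GRCh37. A CArG box, the site of serum response factor (CC and GG around a run of A or T, 10 bases in all, read on both strands), was present before 1.13% of 19811 protein-coding start sites. DUSP5 and EGR1 had 2 boxes each. In EGR1 they began 105 and 83 bases before the start site, and in DUSP5 they began 80 and 70 bases before it and stood end to end. The 2 sequences are shown because they are the promoters with this motif, with the boxes in capitals, each on the strand of its gene from 5′ to 3′.
EGR1, GRCh37 chr5:137800918-137801167, plus strand: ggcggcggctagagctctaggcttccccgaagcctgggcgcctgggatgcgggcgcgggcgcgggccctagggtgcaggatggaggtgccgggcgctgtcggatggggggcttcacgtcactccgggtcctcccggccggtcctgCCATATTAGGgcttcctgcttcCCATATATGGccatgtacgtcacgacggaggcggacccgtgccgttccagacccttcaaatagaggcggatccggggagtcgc
DUSP5, GRCh37 chr10:112257415-112257664, plus strand: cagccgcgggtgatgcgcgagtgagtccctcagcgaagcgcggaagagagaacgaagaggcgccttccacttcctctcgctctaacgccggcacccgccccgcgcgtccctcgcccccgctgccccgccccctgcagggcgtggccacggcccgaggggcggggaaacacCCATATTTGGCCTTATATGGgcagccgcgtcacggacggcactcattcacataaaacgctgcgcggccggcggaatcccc

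The ETS core CCGGAA, read on both strands, stood before 19.4% of all start sites and before DUSP4, SPRY2 and PHLDA1, once in each. The PHLDA1 promoter is shown with this core in capitals, since PHLDA1 had the farthest-reaching high-count loops of the 9 genes. The core lies on the opposite strand there and so reads TTCCGG.
PHLDA1, GRCh37 chr12:76425557-76425806, minus strand: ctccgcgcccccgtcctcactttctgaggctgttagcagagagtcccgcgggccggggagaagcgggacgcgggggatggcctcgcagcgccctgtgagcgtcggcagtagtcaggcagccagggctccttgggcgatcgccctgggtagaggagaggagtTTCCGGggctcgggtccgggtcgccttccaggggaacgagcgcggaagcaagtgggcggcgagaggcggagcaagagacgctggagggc

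Neither the AP-1 site TGANTCA (4.7% of all start sites) nor the cyclic AMP response element TGACGTCA (2.4%) was found before any of the 9 start sites. These matches describe letters in a window and say nothing of which factor was bound.

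The promoter anchors were between 3.91 kb (EGR1) and 6.38 kb (DUSP4) wide for the 8 genes with 1 anchor. Each of these 8 anchors held the start site and the first exon, and none held the start site of another protein-coding gene. In PHLDA1 (chr12:76422899-76427519, hg19) and EGR1 (chr5:137798979-137802891) the anchor reached from the first into the second and last exon but ended within it. In SPRY2 (chr13:80912121-80916715) it overlapped the first of 2 exons, and in ETV4 (chr17:41620539-41625146) the first 4 of 13 exons. ETV5 differed, as its start site lay in the gap between 2 anchors, one over exons 2 to 5 (chr3:185820199-185825510) and one upstream of the gene (chr3:185827920-185830543).

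Contact counts were high for most of the feedback phosphatases and for PHLDA1, and low for SPRY2. The DUSP4 promoter had 40 and 50 counts in replicates 1 and 2 (mean 45.0 ± 7.07, SD, n = 2), the most of the 9 genes. PHLDA1 had 36 and 46 counts, DUSP5 had 31 and 44, and DUSP6 had 32 and 38. All 4 genes were above the upper quartile of all promoters in the summed count, which was 44 against a median of 29 and a lower quartile of 18. Their percentiles among the 16465 promoters were 97.2 for DUSP4, 95.9 for PHLDA1, 94.4 for DUSP5 and 92.9 for DUSP6.

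The ETS factor genes and SPRY4 came next. ETV5 had 34 and 33 counts over its 2 anchors (91.7th percentile), SPRY4 had 24 and 28 (83.2nd), and ETV4 had 19 and 25 (75.1st). EGR1 had 20 and 13 counts and was at the 58.8th percentile in the sum, but at the 74.1st in replicate 1 and the 40.6th in replicate 2. SPRY2 had only 6 and 17 counts (11.5 ± 7.78, SD, n = 2), the 37.3rd percentile, and was the one gene under the median of all promoters. The share of counts from replicate 1 was 26.1% in SPRY2 and 60.6% in EGR1, against 46.4% over all loops. Neither difference passed (exact binomial test, adjusted p = 1.0 over 11615 promoters, of which 0% passed). With so few counts this does not show that the shares were alike.

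**Figure D1:**
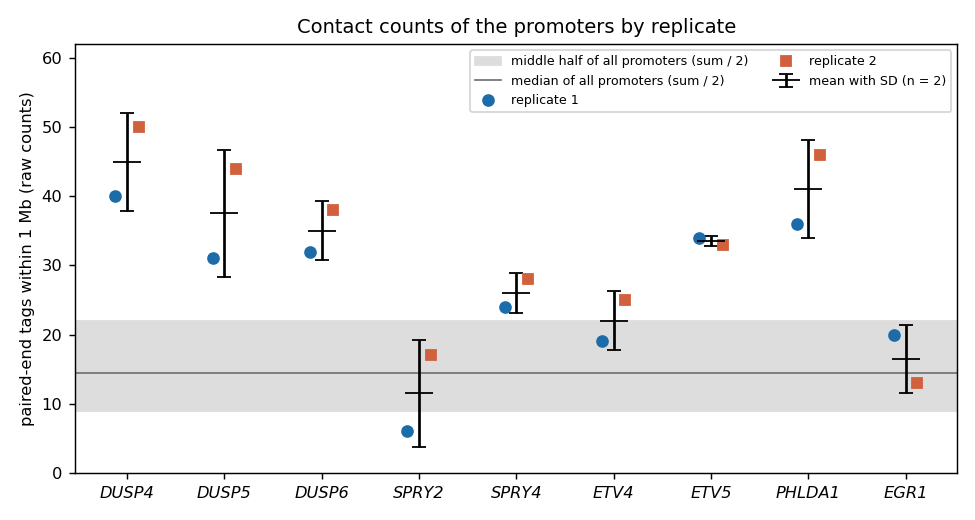
Raw paired-end tag counts within 1 Mb for each promoter (y axis) in replicate 1 (circles) and replicate 2 (squares), with the mean and SD of the 2 replicates as black bars. The grey band and line are the quartiles and the median of the summed count of all 16465 promoters divided by the number of replicates. DUSP4, DUSP5, DUSP6, SPRY4, ETV5 and PHLDA1 lie above the band in both replicates and ETV4 in replicate 2, while SPRY2 and EGR1 lie within or below it.

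Wider anchors collect more counts, so levels were also compared per kb of promoter anchor. On this scale PHLDA1 had 7.79 and 9.95 counts per kb in the 2 replicates, DUSP5 6.19 and 8.78, and DUSP4 6.27 and 7.84. SPRY4, DUSP6, ETV4, ETV5 and EGR1 followed in this order of the summed count per kb, from 11.9 down to 8.43, and SPRY2 was last with 1.31 and 3.70 counts per kb. The replicate values of each gene overlapped those of its neighbour in this order, whereas PHLDA1 did not overlap SPRY4 or any gene after it. The libraries differed in depth, so this overlap does not rank neighbours. Within each replicate PHLDA1 was above DUSP5, and DUSP4, SPRY4, DUSP6 and ETV4 descended in this order. The other neighbours changed order between the replicates. In the summed count per kb, 8 of the 9 genes were above the median of all promoters of 7.3, and the median percentile of the 9 genes fell from 91.7 by count to 77.5 per kb.

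Depth also varied along the genome. All counts per kb of anchor within 2.5 Mb of the start site were 2.01 times the genome average around DUSP5, 1.39 times around ETV4 and 0.514 times around SPRY2, and 1.02 to 1.21 times around the other 6 genes. With each contact count divided by this depth, DUSP5 stood at the 69.0th percentile, ETV4 at the 58.7th and SPRY2 at the 79.6th, while DUSP4, DUSP6 and PHLDA1 were still at the 97.8th, 95.2nd and 95.1st. The part of DNA copy number in these depths was not tested.

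EGR1 stood apart in tag pairs with both ends in the same anchor, which are short-range pairs and no loops. It had 19 and 21 such pairs in the 2 replicates, while the other 8 genes had between 1 and 9 in a replicate. This placed EGR1 at the 99.3rd percentile of all promoters, although its loop count was ordinary. Its 1.21 same-anchor pairs per loop count were at the 99.8th percentile, against a median of 0.133 over all promoters. In the other genes this quantity ranged from 0.111 in DUSP4 to 0.304 in SPRY2. The EGR1 anchor was narrow for the group and held 9 GATC sites, the sequence that MboI cuts, with 2.3 per kb against 2.27 per kb over all anchors. Its GC content of 65.3% was at the 99.7th percentile of all anchors, and the part of GC content in the same-anchor count was not tested.

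**Figure D2:**
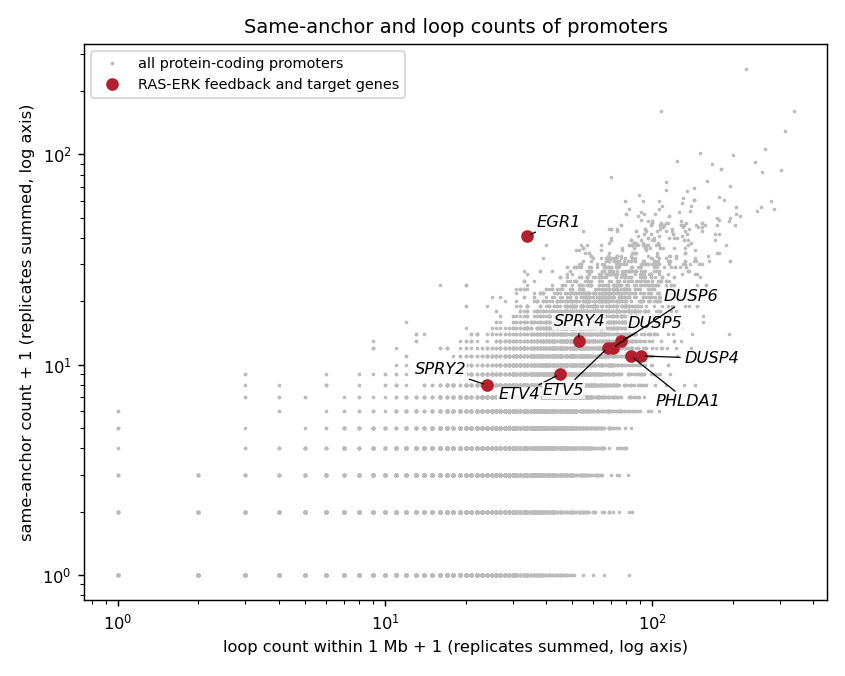
Summed loop count within 1 Mb plus 1 (x axis, log scale) against the summed same-anchor count plus 1 (y axis, log scale) for all protein-coding promoters (grey) and the 9 genes (red). EGR1, with 40 same-anchor counts, lies above the cloud at its loop count of 33, while the other 8 genes lie within the cloud.

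Single loops of these genes were thinly covered. Of the 328 loops, 238 had a count of 1, and 69 (21.0%) were found in both replicates, against 14.1% of the 303154 loops of all protein-coding promoters. The study took interaction counts of at least 5 as comparatively high, without stating how replicates were combined. Here a count of at least 5 summed over both replicates was reached by 16 loops (4.88%), against a background of 2.62%. These were 4 loops each of DUSP5 and PHLDA1, 2 each of DUSP4, DUSP6 and ETV5, and 1 each of SPRY4 and ETV4. No loop of SPRY2 or EGR1 reached it. Of the 16 loops, 9 spanned at least 20 kb and 5 spanned over 100 kb. The distances of such loops over all promoters are not given here, so 9 and 5 cannot be read as few or many.

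To ask whether a loop exceeded the depth and distance of its anchors, each count was set against an expected count. This came from the distance between the anchors and the balanced depth of both, with the pair itself left out of the depth. Leaving it out lowers the expected count of a high-count pair, so some ratios are also given with the pair kept. The exact 95% Poisson interval of the summed count lay above the expected count in 34 loops (10.4%), against 10.6% of the loops of all promoters, and below it in 2 loops, against 0.101%, so the share of raised loops was that of promoters in general. No loop passed the one-sided exact Poisson test after Benjamini-Hochberg adjustment over 51094598 pairs (lowest adjusted p = 1.0). Over the loops of all promoters 0.00132% passed, and over all pairs 4.89e-05%. The loops below are therefore described by count and ratio to expected with its exact 95% interval, which covers counting error only.

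DUSP4 (chr8:29190581-29208201, minus strand), a nuclear phosphatase of MAP kinases, contacted mainly its upstream flank, which held no other protein-coding start site nearby. Upstream contacts numbered 32 of 40 in replicate 1 and 38 of 50 in replicate 2. The share of 77.8% (exact 95% interval 67.8 to 85.9) was above the 41.3% that depth and distance gave, and it passed the test (exact binomial test, adjusted p = 1.19e-08 over 11581 promoters). This test called 2.43% of all promoters on either side, 1.2% upstream and 1.23% downstream, and of the 9 genes it called DUSP4 and DUSP5, both upstream.

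The surplus of DUSP4 lay far from the gene. Between 300 and 500 kb upstream it had 16 and 12 counts in the replicates against 7.67 expected in the sum, a ratio of 3.65 (2.42 to 5.27). Between 500 and 700 kb upstream the counts were 3 and 8 against 2.48 expected, a ratio of 4.44 (2.22 to 7.95). The nearest protein-coding start site upstream was that of SARAF at 732 kb, so neither range held one. On the other side, between 20 and 100 kb downstream, DUSP4 had 0 counts in both replicates where 6.91 were expected, with an upper limit of 0.534 on the ratio. KIF13B, the nearest downstream start site at 87.6 kb, lies in that range. These distance ranges were chosen with the results known and carry no test.

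The DUSP4 surplus was spread over many anchors. Its highest loop of at least 20 kb joined an intergenic anchor at 207 kb upstream (chr8:29411027-29416192) with 2 and 3 counts (ratio 2.84, 0.922 to 6.63). Beyond 300 kb, 2 loops shared the highest count. The one to an anchor at 347 kb (chr8:29552066-29556397) had 4 counts in replicate 1 and 0 in replicate 2 (15.8, 4.32 to 40.6), and the one to an anchor at 319 kb (chr8:29521295-29529927) had 3 and 1 (3.53, 0.963 to 9.05). An anchor at 381 kb had 1 and 2 counts and one at 665 kb also had 1 and 2. The loop with the highest count of all 9 genes was intragenic, from the DUSP4 promoter to an anchor 7.08 kb away within the gene, with 8 counts in each replicate. This was below the 31.6 counts expected from distance and anchor depth, with a ratio of 0.507 (0.29 to 0.823). With the pair kept in the depth the ratio was 0.647. With distance alone as the expectation it was 8.88, so the shortfall depends on the anchor depth.

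**Figure D3:**
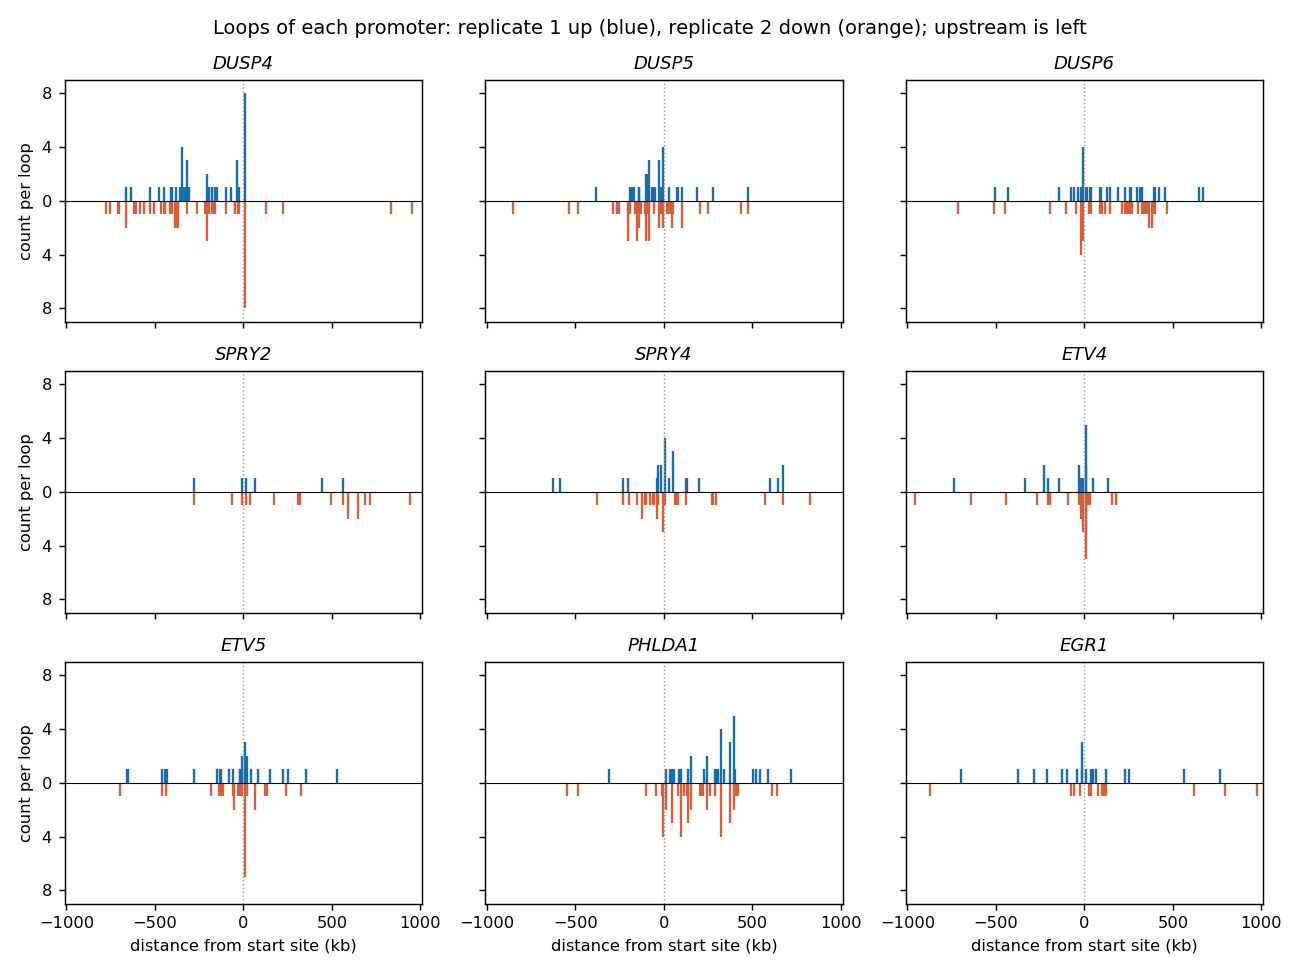
Position of every loop of the 9 promoters relative to the start site in kb (x axis, upstream on the left), with the count of replicate 1 drawn upward and that of replicate 2 downward (y axis). The DUSP4 loops crowd upstream and the PHLDA1 loops downstream in both replicates, and most lines have a count of 1. The loop between the 2 promoter anchors of ETV5 is left out.

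DUSP5 (chr10:112257665-112271291, plus strand) is a nuclear phosphatase selective for ERK. It also contacted its upstream flank more than expected, with 24 of 31 counts in replicate 1 and 32 of 44 in replicate 2. The share of 74.7% (63.3 to 84.0) stood against 53.0% expected (exact binomial test, adjusted p = 0.0137). The call was lost with either replicate left out (adjusted p = 0.218 without replicate 1 and 0.21 without replicate 2, exact binomial test) and with loops up to 2 Mb (0.0595), while the difference stayed between 17.6 and 24.7 percentage points.

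Upstream, DUSP5 exceeded its expected counts between 20 and 300 kb. Within 20 kb it had 5 and 4 counts against 13.3 expected in the sum (ratio 0.676, 0.309 to 1.28). From 20 to 100 kb there were 11 and 7 counts against 9.07 expected in the sum (ratio 1.98, 1.18 to 3.14), and from 100 to 300 kb 7 and 18 against 11.9 (ratio 2.1, 1.36 to 3.1). Beyond 300 kb upstream no range exceeded its expected count. The share of contacts beyond 100 kb, 52.0%, was near the 50.5% expected.

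Of the 4 loops of DUSP5 with at least 5 counts, 1 joined an intergenic anchor at 6.29 kb upstream with 4 and 2 counts (0.756, 0.278 to 1.65), and 3 reached intergenic anchors in this flank beyond 20 kb. The anchor at 85.1 kb (chr10:112167637-112176995) had 3 counts in each replicate, the one at 101 kb (chr10:112152434-112160654) had 2 and 3, and the one at 25.3 kb (chr10:112230736-112233606) had 3 and 2. Their ratios to expected were 2.27, 2.31 and 2.58, and each interval included 1. The anchor at 25.3 kb contacted the DUSP5 promoter more than any other anchor beyond 20 kb, as this was the highest of its 20 such loops.

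DUSP6 (chr12:89741012-89746278, minus strand), a cytoplasmic phosphatase selective for ERK, leaned the other way. Upstream contacts were 11 of 32 and 13 of 38, a share of 34.3% (23.3 to 46.6) against 51.2% expected, which did not pass the test (exact binomial test, adjusted p = 0.122). With pairs under 20 kb left out the difference was −24.4 percentage points and passed (adjusted p = 0.00899, exact binomial test). Between 300 and 500 kb downstream DUSP6 had 6 and 12 counts against 7.62 expected (ratio 2.36, 1.4 to 3.73), and between 100 and 300 kb it had 7 and 8 against 8.03 (1.87, 1.05 to 3.08). No protein-coding start site lay downstream until KITLG, which encodes the ligand of the KIT receptor, at 772 kb.

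The high-count loops of DUSP6 were short. An intergenic anchor 6.69 kb upstream had 4 and 3 counts (ratio 1.73, 0.696 to 3.57), and one at 21.7 kb (chr12:89766396-89770159) had 1 and 4 counts, which was no more than expected (0.741, 0.241 to 1.73). An intergenic anchor 258 kb downstream had 1 count in each replicate (20.4, 2.47 to 73.7). DUSP6 had 50 loops, the most of the 9 genes, of which 38 had a count of 1.

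PHLDA1 (chr12:76419227-76425556, minus strand) had the strongest single distal contacts by count. Most of its counts lay downstream, 35 of 36 in replicate 1 and 37 of 46 in replicate 2. Anchors with depth also lay there, so that only 25.4% was expected upstream. The upstream share of 12.2% (6.01 to 21.3) did not pass (exact binomial test, adjusted p = 0.112). It passed with pairs under 20 kb left out (adjusted p = 0.0141, exact binomial test), with only loops of at least 2 counts (0.0297) and with distance alone as the expectation (4.26e-11). Where only loops of at least 2 counts were kept, the expected share still covered all pairs, so that call is not like for like.

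What passed for PHLDA1 was the reach. Contacts beyond 100 kb were 29 of 36 and 30 of 46, a share of 72.0% (60.9 to 81.3) against 45.3% expected (exact binomial test, adjusted p = 0.000434). DUSP4 was the other gene called, with 26 of 40 and 38 of 50 counts beyond 100 kb, 71.1% (60.6 to 80.2) against 45.9% (adjusted p = 0.000693, exact binomial test). This test called 1.57% of all promoters in either direction, 0.958% with a share above expected and 0.613% below. The PHLDA1 difference of 26.7 percentage points was no longer called without replicate 1 (22.5 points, adjusted p = 0.146, exact binomial test) and with pairs under 20 kb left out (14.9 points, 0.174). The DUSP4 difference of 25.2 points was no longer called without replicate 2 (21.1 points, adjusted p = 0.263, exact binomial test).

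**Figure D4:**
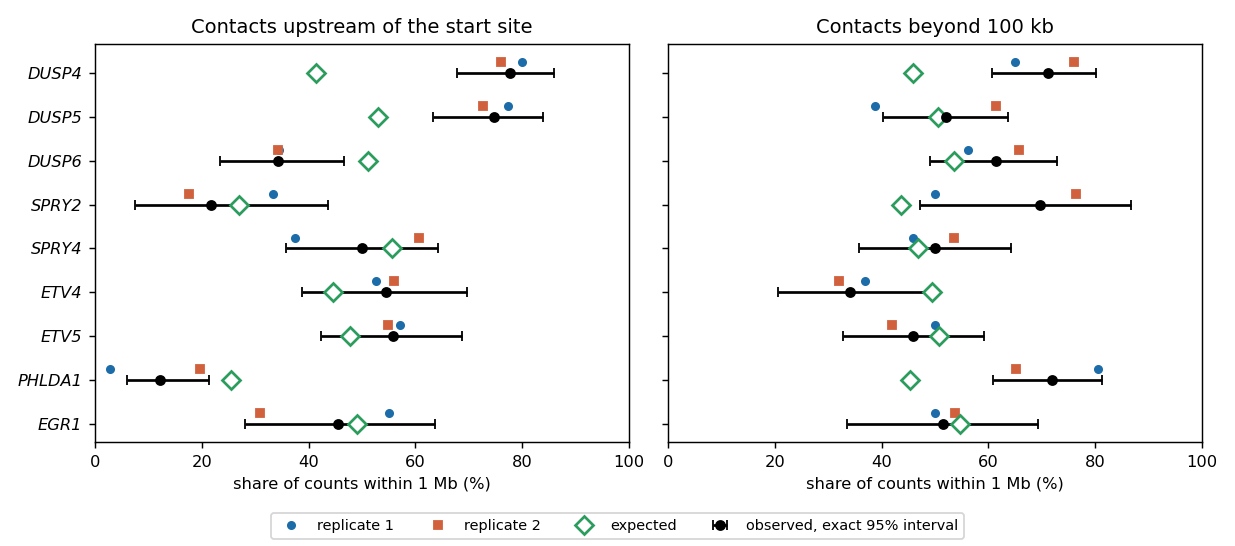
Share of each promoter's counts within 1 Mb that lay upstream of the start site (left) and beyond 100 kb (right), in percent. Black points with bars are both replicates summed with the exact 95% interval, blue circles and orange squares the single replicates, and open green diamonds the expected share. The intervals of DUSP4 and DUSP5 lie above the expected upstream share, and those of DUSP6 and PHLDA1 below it, while those of DUSP4, PHLDA1 and SPRY2 lie above the expected far share. After adjustment DUSP4 and DUSP5 were called for side, and DUSP4 and PHLDA1 for reach.

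Between 300 and 500 kb downstream PHLDA1 had 15 and 11 counts against 10.1 expected (ratio 2.58, 1.69 to 3.79), and between 100 and 300 kb it had 8 and 14 against 11.2 (1.96, 1.23 to 2.96). Within 20 kb downstream it had only 1 and 2 counts against 17.2 expected (0.174, 0.0359 to 0.509). KRR1, a ribosome biogenesis factor gene at 520 kb, held the nearest downstream start site, so the raised ranges held none.

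The far contacts of PHLDA1 included several long anchors. The anchor at 324 kb (chr12:76092436-76110408) was 18.0 kb wide and had 4 counts in each replicate, with a ratio of 3.73 (1.61 to 7.36). Those at 393 kb (chr12:76027131-76036481, 9.35 kb wide) and 371 kb (chr12:76045044-76063691, 18.6 kb wide) had 5 and 2 counts (4.83, 1.94 to 9.95) and 3 and 3 counts (2.8, 1.03 to 6.09). With the pair kept in the depth, the ratios of the anchors at 324, 393 and 371 kb were 3.44, 4.45 and 2.65. All 3 were intergenic, with KRR1 as the nearest protein-coding gene. Partner anchors of at least 10 kb took 22 of the 82 counts of PHLDA1 (26.8%), against 4.13% of the counts of all promoters and at most 5.33% in any of the other 8 genes.

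These long anchors did not contact PHLDA1 alone or mainly. Only 1.2% to 1.75% of their 436 to 500 counts within 1 Mb joined them to the PHLDA1 promoter. The anchors at 393 kb and 371 kb also contacted the promoter of BBS10, a chaperonin-like ciliopathy gene beyond PHLDA1, with 4 and 4 counts at 710 kb (ratio 8.77, 3.79 to 17.3) and with 3 and 4 counts at 688 kb (5.85, 2.35 to 12.1). The anchor at 97.6 kb (chr12:76325558-76329673) had 1 and 4 counts with PHLDA1 (4.41, 1.43 to 10.3), the highest of its 44 loops beyond 20 kb.

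**Figure D5:**
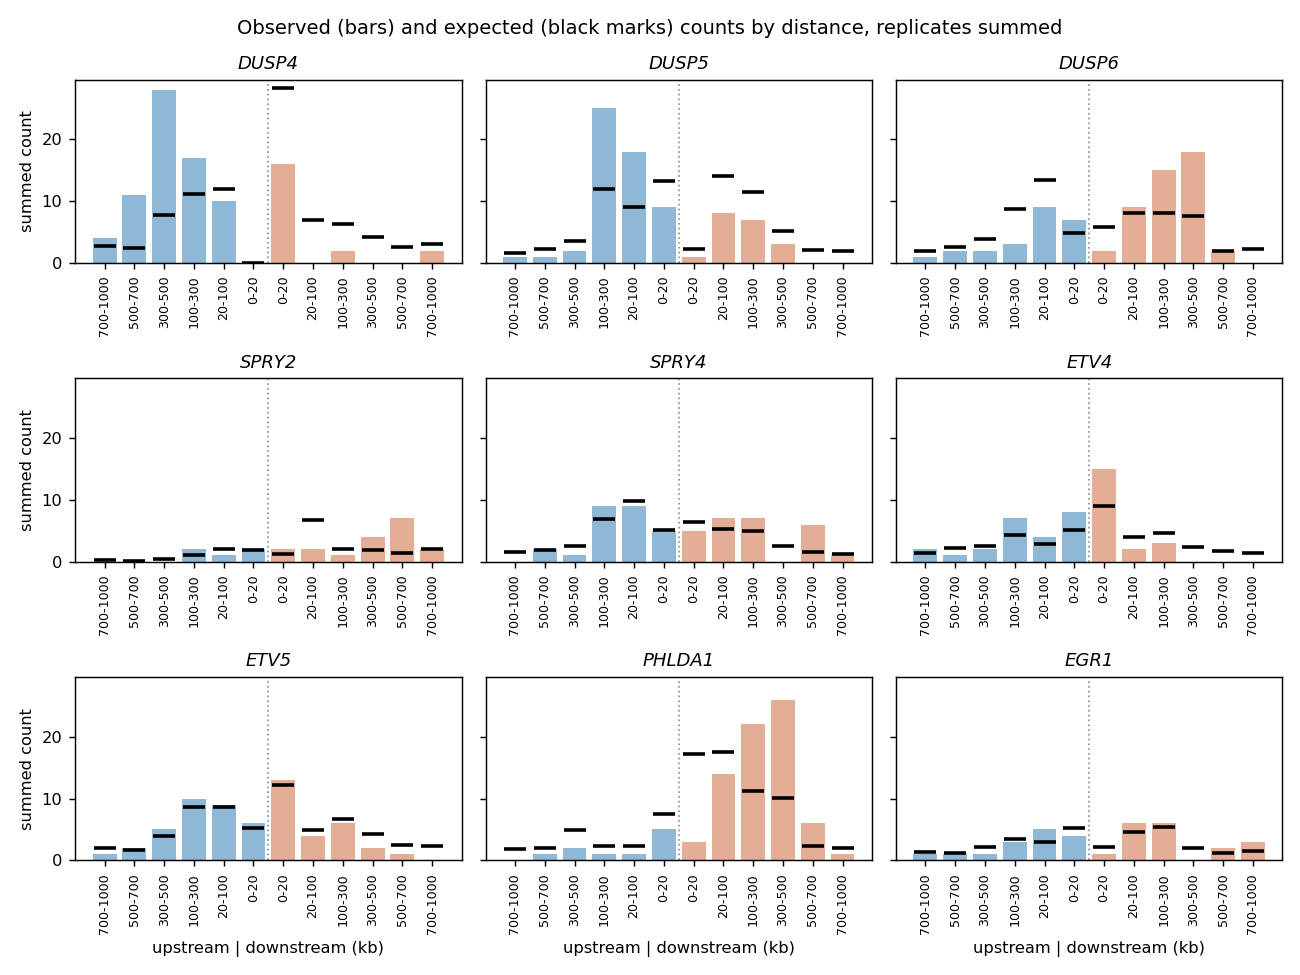
Summed counts of both replicates (bars, blue upstream and orange downstream) and expected counts (black marks) by distance from the start site in kb for each gene. The bars of DUSP4 exceed the marks between 300 and 700 kb upstream and those of PHLDA1 between 100 and 500 kb downstream, while both fall short within 20 kb downstream.

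Of the Sprouty genes, SPRY2 (chr13:80910111-80915261, minus strand) lay among few other anchors and genes. It had 2 protein-coding start sites and 116 anchors within 1 Mb, while the other genes had 228 to 254 anchors. Its 23 counts fell on 17 loops, none above 2. Several loops shared the highest count of 2. Those of them with the highest ratios reached intergenic anchors downstream at 561 kb with 1 and 1 counts, at 590 kb with 0 and 2, and at 649 kb with 0 and 2. The others, each with 1 and 1 counts, reached intergenic anchors at 278 kb upstream, 13.7 kb downstream and 6.45 kb upstream. Contacts beyond 100 kb were 3 of 6 and 13 of 17, a share of 69.6% (47.1 to 86.8) against 43.6% expected, which did not pass (exact binomial test, adjusted p = 0.242). Between 500 and 700 kb downstream it had 1 and 6 counts against 1.4 expected (5.02, 2.02 to 10.3), before the start site of NDFIP2 at 860 kb. All but 1 of these counts came from replicate 2.

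SPRY4 (chr5:141689995-141704586, minus strand) had its highest loop within the gene, 7.69 kb from the promoter anchor, with 4 and 1 counts and no excess over the expected count (0.831, 0.27 to 1.94). An intergenic anchor 50.7 kb downstream had 3 and 0 counts (1.96, 0.405 to 5.74). Its upstream share was 37.5% in replicate 1 and 60.7% in replicate 2, on opposite sides of the 54.5% and 56.7% expected. At 674 kb downstream SPRY4 contacted an anchor holding the start site of FCHSD1 (chr5:141027737-141036759) with 2 and 1 counts against 0.195 expected (15.4, 3.17 to 45.0). This was the highest count between any of the 9 promoters and another protein-coding start site. There were 14 such loops with 16 counts in all, of which EGR1 had 5 loops, ETV5 4, ETV4 and PHLDA1 2 each and SPRY4 1, and the phosphatase genes and SPRY2 had none. Start sites within 1 Mb numbered 11 for DUSP4, 10 for DUSP5, 5 for DUSP6 and 2 for SPRY2. The other genes had 61 (ETV4), 35 (SPRY4), 28 (EGR1), 21 (ETV5) and 11 (PHLDA1). The share of such loops over all promoters is not given here, so 14 cannot be read as few or many.

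ETV4 and ETV5 had their highest counts near the start site and within the gene body. ETV4 (chr17:41605214-41623708, minus strand) had 5 counts in each replicate to an intragenic anchor at 8.37 kb (chr17:41613676-41615273), against 3.96 expected (2.53, 1.21 to 4.65). With the pair kept in the depth this ratio was 1.95. A second intragenic anchor at 6.03 kb had 2 counts in each replicate (1.76, 0.479 to 4.5). An intergenic anchor at 10.4 kb upstream had 1 and 3 counts (3.15, 0.857 to 8.06). Of the loops of at least 20 kb, the highest joined an intergenic anchor at 31.9 kb upstream with 2 and 1 counts (4.65, 0.959 to 13.6), and one within DUSP3, another phosphatase gene, at 227 kb had 2 and 0 (63.7, 7.72 to 230.0). Only 7 of 19 and 8 of 25 counts of ETV4 lay beyond 100 kb, a share of 34.1% (20.5 to 49.9) against 49.4% expected, which did not pass (exact binomial test, adjusted p = 0.367). With only loops of at least 2 counts the difference went from −15.3 to −34.9 percentage points and passed (adjusted p = 0.000594, exact binomial test). In that setting single counts left the observed share only, while the expected share still covered all pairs. The far difference fell in all 9 genes there, so this call cannot decide whether ETV4 had fewer far contacts. ETV4 was in the most gene-dense region of the group, with 61 other protein-coding start sites within 1 Mb.

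The 2 anchors that flank the ETV5 start site (gene at chr3:185764103-185826878, minus strand) were joined by 6 and 2 counts against 3.18 expected (2.52, 1.09 to 4.96). With the pair kept in the depth this ratio was 1.82. An intragenic anchor at 5.35 kb had 3 and 7 counts (1.32, 0.631 to 2.42). No other loop of ETV5 had more than 3 counts. These 3 counts, 2 and 1 in the replicates, joined an intragenic anchor at 15.5 kb. Of the loops of at least 20 kb, those with 2 counts reached anchors within DGKG, a diacylglycerol kinase gene upstream, at 59.6, 129 and 137 kb, and intergenic anchors at 62.4 kb downstream and 21.7 kb upstream. Upstream and far shares of ETV5 were 55.9% against 47.8% expected and 45.8% against 50.8% (exact binomial tests, adjusted p = 0.674 and 0.877). With only loops of at least 2 counts the far difference of ETV5 went from −5.01 to −35.9 percentage points and passed (adjusted p = 0.000499, exact binomial test). As for ETV4, the expected share still covered all pairs, so this call decides nothing about ETV5.

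EGR1 (chr5:137801168-137804992, plus strand), with the CArG boxes shown above, had no loop of more than 3 counts. Its highest reached an intergenic anchor 13.5 kb upstream and was seen in replicate 1 alone, with 3 and 0 counts (1.76, 0.364 to 5.15). Only 2 of its 29 loops were found in both replicates, at 35.2 kb and 122 kb downstream, with 1 count in each. The upstream share was 55.0% in replicate 1 and 30.8% in replicate 2, on opposite sides of the expected 50.5% and 46.9%, and the far share of 51.5% was near the 54.6% expected.

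The sequence of the distal partners was read for AP-1 sites, a motif common in enhancers of epithelial cells. For the 9 partners of DUSP4, DUSP5, DUSP6 and PHLDA1 with at least 5 counts at 20 kb or more, the density of TGANTCA ranged from 0.122 per kb (the DUSP5 anchor at 101 kb) to 1.06 per kb (the DUSP6 anchor at 21.7 kb), around the 0.352 per kb of all anchors. The 3 PHLDA1 anchors beyond 300 kb had 0.268 to 0.445 per kb.

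Other genes of the pathway, in lists chosen with earlier results known, were set beside the 9 genes. Of 20 genes of the core pathway, from receptors and adaptors to RAS, RAF, MEK and ERK, 18 had a promoter anchor and their median percentile by contact count was 73.9, from 6 counts in RPS6KA3 to 106 in SHC1, an adaptor. None of the 14 tested was called for side or reach. Of 14 other feedback inhibitors 12 had an anchor, with a median percentile of 61.9, and of the 10 tested 1 was called upstream, ERRFI1, an inhibitor of the EGF receptor with 57 and 51 counts (86.1% upstream against 61.3%, exact binomial test, adjusted p = 1.73e-05). Of 15 other ERK targets 14 had an anchor, with a median percentile of 92.1, and of the 13 tested 2 were called upstream, JUN and CCND1, and 2 beyond 100 kb, MYC and CCND1. The 9 genes had a median percentile of 91.7 and 2 calls of each kind among 9 tested, which describes these lists and carries no test.

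The cell type was checked by contact counts of marker promoters. The epithelial keratin genes KRT8, KRT18 and KRT19 had 113, 133 and 103 counts, all above DUSP4, while CDH1 and EPCAM had 15 and 26. The blood markers PTPRC and CD3E had 25 and 20 counts, ALB of liver 19 and GFAP of glia 14. The fibroblast genes COL1A1 and COL3A1 had 33 and 77, so 1 marker of another cell type was in the range of the phosphatase genes, and its part in the results was not tested. COL1A1 was also called upstream, with 66.7% against 36.9% expected (exact binomial test, adjusted p = 0.0382). No other marker tested was called for side or reach. PECAM1 of endothelium had no promoter anchor.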

How the data were processed

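H3K27ac HiChIP libraries of HCT116 cells, cut with MboI, were analysed in 2 replicates. The deposited values are raw counts of paired-end tags per pair of anchors on 1 chromosome, made by the authors with HiC-Pro and hichipper on hg19 and not normalized. Versions, the source of the anchors and any distance limit are not given in the sources used here. The 9 genes, the lists and the tests were chosen with earlier results of these data known.

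Genes were taken from GENCODE 44 on GRCh37, and loops were pairs of different anchors within 1 Mb. The expected count was fitted for each replicate over all pairs within 2 Mb, pairs without counts included. It used 60 distance classes and anchor depth balanced in 20 rounds. For single loops, the depth of an anchor did not include the pair in question and an offset of 0.5 was added. The expected shares and the expected counts by distance range kept every pair in the depth. Single loops were tested by a one-sided exact Poisson test. Upstream shares and shares beyond 100 kb were tested by two-sided exact binomial tests over promoters with at least 20 counts. Benjamini-Hochberg adjustment was used throughout, and a call needed an adjusted p under 0.05 and, for shares, both replicates on the same side of their expected share. Counts from one library are not independent of PCR duplicates, so intervals and p-values cover counting error only.

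For each gene the text names the 3 loops of highest summed count, the 2 highest of at least 20 kb (ties by the ratio to expected) and any loop that passed, and other loops named were chosen after their values were seen. Some listed pathway and marker genes are not reported here by name. Distances are between anchor midpoints. The scripts were tested on simulated data of chromosome 12. The loop test called 17 of 200 loops raised 5-fold and 131 of 200 raised 10-fold, so a loop that did not pass may still be raised. The side test called 20 of 100 promoters raised 2-fold on one side, and 5 that were not raised. At 3-fold it called 88 of 100, and 20 that were not raised. At 1-fold, with none raised, it called 0. Side calls such as those of DUSP4 and DUSP5 may therefore be false more often than the adjusted p states. The fits and tests were run in Python 3.11.15 (scipy 1.17.1 and numba 0.67.0), with pysam 0.24.0 for sequence, numpy 2.4.6 for arrays and pandas 2.3.3 for tables.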

Additional observations from a re-analysis of the deposited data

Results flagged for a closer look

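Contacts beyond 2 Mb on the same chromosome were in no comparison above. All 9 promoters had some, with summed counts of 16 for DUSP4, 45 for DUSP5, 27 for DUSP6, 15 for SPRY2, 25 for SPRY4, 8 for ETV4, 34 for ETV5, 12 for PHLDA1 and 20 for EGR1. They exceed the 3 counts that a count of 0 allows, which is why they are given here, as no control library was analysed. The median over all promoters was 10.0, and 8 of the 9 genes were above it. DUSP5, whose region had 2.01 times the average depth, was at the 98.9th percentile and ETV4 at the 41.3rd. No single pair of anchors had more than 3 of these counts. SPRY4 had 19 and 6 in the 2 replicates and DUSP4 had 3 and 13.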

How the results depend on the processing

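No paired analysis was possible because the samples form 1 group. The 16 loops with at least 5 counts became 9 with anchors at least 20 kb apart, 3 at a minimum of 10 counts, and 3 to 4 with a replicate left out. The count of 0 loops above expectation became 14 when distance alone gave the expectation, which ignores anchor depth. The 2 genes called for one side became 1 with loops up to 2 Mb, 4 with anchors at least 20 kb apart (DUSP4, DUSP5, DUSP6 and PHLDA1), 1 at adjusted p under 0.01 and 1 with either replicate left out. The 2 genes called for reach became 1 with anchors at least 20 kb apart, 4 with only loops of at least 2 counts, where ETV4 and ETV5 were called for fewer far contacts, and 1 with either replicate left out. Keeping only loops of at least 2 counts took single counts out of the observed share but not the expected one. The added calls of ETV4 and ETV5 therefore decide nothing. The median percentile of 91.7 became 85.4 with anchors at least 20 kb apart, 89.2 with a window of 1 kb, 88.0 with only loops of at least 2 counts, 88.8 to 91.4 with a replicate left out, 77.5 per kb of anchor, and 81.4 after division by regional depth, a setting added after seeing the data. With the window of 1 kb ETV5 had no promoter anchor. No called result changed its direction. Where a cause is not given, the cause was not tested. Depth limits the single loops, of which 238 of 328 had 1 count.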
